A study of Mus musculus with 8 samples.

Results

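Respiratory chain genes were taken from the hippocampal count table by symbol: every row beginning with mt-, Ndufa, Ndufb, Ndufc, Ndufs or Ndufv and a digit, Sdha to Sdhd, Uqcr, Cox4 to Cox8, or Atp5. This gave 96 of 17143 genes, of which 13 are encoded by mitochondrial DNA and 83 by the nucleus. By complex, the 13 mitochondrial-encoded genes comprised 7 of complex I, 1 of complex III, 3 of complex IV and 2 of complex V. The 83 nuclear-encoded genes comprised 35 of complex I, 4 of complex II, 8 of complex III, 19 of complex IV (Ndufa4 and Ndufa4l2 counted there) and 17 of complex V. The rule also took Atp5s and Atp5sl, which are not core subunits of the ATP synthase, and Cox7a2l, a factor that joins complexes III and IV into supercomplexes. By position, 94 of the 96 could be placed in the mouse build GRCm38, and the placed nuclear-encoded genes lay on 19 chromosomes.

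The data were single-cell RNA counts from the hippocampus of 8 a/a mice aged 5 months, in 2 groups of 4 with 2 females and 2 males each. Dams of the Pb group drank water with 32 ppm Pb-acetate from 2 weeks before mating until their pups were weaned, dams of the Control group drank water without it, and all offspring drank Pb-free water from weaning. At most 1 male and 1 female per litter were kept, and the labels do not tie mice to litters, so mice treated below as independent may share a dam. After saline perfusion the tissue was dissociated in a heated instrument, and the cells were frozen, thawed and captured on a 10x Chromium.

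Cells burn fuel in mitochondria by passing electrons along complexes I to IV. Of these, complexes I, III and IV pump protons across the inner membrane, and complex V, the ATP synthase, uses the returning protons to make ATP. Complexes I, III, IV and V are built from subunits of both genomes, and complex II from nuclear genes alone. The mitochondrial genes are read as long transcripts from both strands and cut into single messengers inside the organelle, whereas each nuclear gene has its own promoter and its protein is imported. In brain, astrocytes, oligodendrocytes, vascular cells and microglia differ in how much they rely on respiration and glycolysis.

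After filtering, 5175 cells remained (3555 Pb, 1620 Control), with 211 to 1157 cells and 1749079 to 8508064 unique molecular identifier counts (UMIs) per mouse. Cells with over 20% of UMIs from the 13 mitochondrial-encoded genes (53 in all) had been left out, which bounds the mitochondrial-encoded share of any 1 cell. Cells were clustered without the respiratory chain genes and named from marker lists. Of the classes large enough in at least 3 mice of each group to be tested, 6 took names: Microglia-like (1291 cells), Oligodendrocyte-like (1276), Endothelial-like (535), Astrocyte-like (272), Smooth muscle-like (148) and Cajal-Retzius-like (110). Cluster 0 (786 cells) had endothelial markers but was led by hemoglobin genes, and cluster 7 (202 cells) had markers of both pericytes and endothelium, so both are called by number. No cluster was named as mature neurons. Between libraries, 32 barcodes occurred in 2 or more, in 91 cells, and without those cells the counts of calls given below stayed within 1.5 times and 1 named value changed sign, the near-0 difference of mt-Nd3 in cluster 7. Libraries stood apart in makeup: 46 of the 95 Choroid plexus-like cells and 69 of the 70 cells of 1 Oligodendrocyte-like cluster came from Control M2. In the comparison of Pb and control mice, shares over all cells are given with and without the former. The mitochondrial-encoded share of Oligodendrocyte-like cells is given with and without the latter. Gene tests, counts of calls, medians and levels include those cells where they enter. Leaving those cells out does not remove the choroid plexus markers counted in other classes, which are given with the measures of cell state below.

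The mitochondrial-encoded ATP synthase subunit mt-Atp8 is shown first because it had the lowest or second lowest fold change among the mitochondrial-encoded genes in every unit tested but 1, and because its reads cannot be fully told from those of a neighbour. In GENCODE vM21, mt-Atp8 lies on the plus strand at chrM:7766-7969 of GRCm38 and is 204 bases long. The capitals mark the 43 bases, positions 7927 to 7969, that also belong to mt-Atp6.
mt-Atp8: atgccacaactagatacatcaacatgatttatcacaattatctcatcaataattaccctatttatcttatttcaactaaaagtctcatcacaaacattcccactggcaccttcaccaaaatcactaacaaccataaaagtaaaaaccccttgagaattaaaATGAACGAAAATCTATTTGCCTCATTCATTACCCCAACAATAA
Other pairs overlap less: mt-Nd4 and mt-Nd4l share 7 bases, mt-Nd5 and mt-Nd6 share 14 bases on opposite strands, and mt-Atp6 and mt-Co3 share 1. The sources used here give neither how the authors' counting assigned reads in these overlaps nor whether it used strand, so the split within each pair is uncertain.

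Ndufa4 and Ndufa4l2 are shown because the balance of the pair differed between Pericyte-like, Smooth muscle-like and cluster 7 cells and the other classes. NDUFA4 was first counted with complex I and is now placed with complex IV, and Ndufa4l2 encodes its paralog, known as a gene induced by low oxygen. The coding sequences come from GENCODE vM21 (GRCm38), Ndufa4 from the minus strand within chr6:11900535-11907365 (249 bases, 5′ to 3′) and Ndufa4l2 from the plus strand within chr10:127514982-127516499 (264 bases). Capitals mark the 168 bases that are identical in a pairwise alignment, 68.6% of the 245 aligned positions.
Ndufa4: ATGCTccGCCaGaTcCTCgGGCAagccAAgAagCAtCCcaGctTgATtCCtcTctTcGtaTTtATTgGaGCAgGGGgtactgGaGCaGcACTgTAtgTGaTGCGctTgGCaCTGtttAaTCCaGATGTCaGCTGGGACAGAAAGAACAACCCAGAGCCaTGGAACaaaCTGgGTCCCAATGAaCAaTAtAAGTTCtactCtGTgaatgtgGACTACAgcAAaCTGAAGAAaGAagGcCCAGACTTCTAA
Ndufa4l2: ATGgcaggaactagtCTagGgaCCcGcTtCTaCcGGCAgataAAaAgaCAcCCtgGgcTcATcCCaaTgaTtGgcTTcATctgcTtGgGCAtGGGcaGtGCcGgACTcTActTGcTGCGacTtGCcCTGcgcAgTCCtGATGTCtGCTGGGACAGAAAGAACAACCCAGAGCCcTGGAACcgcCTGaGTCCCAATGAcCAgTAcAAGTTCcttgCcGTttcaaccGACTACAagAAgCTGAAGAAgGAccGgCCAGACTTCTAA
The other pairs compared below were less alike, with 65.3% identical positions for Cox4i1 and Cox4i2, 64.6% for Cox6a1 and Cox6a2, 64.3% for Cox7a2 and Cox7a1, 60.8% for Cox6b1 and Cox6b2 and 53.6% for Cox8a and Cox8b.

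Nuclear respiratory genes are classic targets of the factors NRF1 and GABP, and their promoters are shown because many of the nuclear-encoded genes moved together between classes. RefSeq promoters (GRCm38.p6, the 250 bases before the start of the gene) were matched for 69 of the 83 nuclear-encoded genes. An NRF1 motif, the letters GCGC, any base and TGCGC, occurred on either strand in 13 of the 69 (18.8%), against 4.23% of 27025 promoters. The letters CCGGAAG, a GABP motif, occurred in 12 of the 69 (17.4%), against 7.83%. These matches describe letters only. By complex, the NRF1 letters were found in 6 of 31 promoters of complex I, 2 of 3 of complex II, 0 of 5 of complex III, 1 of 14 of complex IV and 4 of 16 of complex V. Cox6a1, an alternative of the complex IV subunit 6A, Sdhd, a membrane anchor of complex II, and Atp5h, a stalk subunit of the ATP synthase, held both motifs. Their promoters follow, 5′ to 3′ on the minus strand, with the motif matches in capitals: Cox6a1 at chr5:115348959-115349208, Sdhd at chr9:50603850-50604099 and Atp5h at chr11:115419920-115420169.
Cox6a1: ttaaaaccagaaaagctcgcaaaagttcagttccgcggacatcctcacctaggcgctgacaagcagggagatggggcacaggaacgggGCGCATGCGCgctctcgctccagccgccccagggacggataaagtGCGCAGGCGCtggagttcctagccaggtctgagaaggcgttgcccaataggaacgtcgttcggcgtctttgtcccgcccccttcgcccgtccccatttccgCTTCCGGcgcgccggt
Sdhd: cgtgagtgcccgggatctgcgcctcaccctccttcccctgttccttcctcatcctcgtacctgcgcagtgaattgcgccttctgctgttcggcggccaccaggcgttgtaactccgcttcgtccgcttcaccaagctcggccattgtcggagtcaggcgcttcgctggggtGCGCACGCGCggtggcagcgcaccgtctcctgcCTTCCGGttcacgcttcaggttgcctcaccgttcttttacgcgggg
Atp5h: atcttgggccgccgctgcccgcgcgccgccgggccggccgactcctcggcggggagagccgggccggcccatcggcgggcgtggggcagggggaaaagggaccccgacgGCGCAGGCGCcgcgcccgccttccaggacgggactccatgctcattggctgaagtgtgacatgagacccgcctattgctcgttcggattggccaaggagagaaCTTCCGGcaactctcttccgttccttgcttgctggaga

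The first comparison asked how the mitochondrial-encoded and nuclear-encoded genes share the RNA of each class. Shares are summed UMIs of the genes as a percent of all UMIs of the class in a mouse, for mice with at least 10 cells of that class, as mean ± SD over mice, and they carry no test. Choroid plexus-like cells had the highest share from mitochondrial-encoded genes, 12.3% ± 0.884 (SD, n = 3 mice), followed by 9.20% in the Ependymal-like cells of 1 mouse and 6.65% ± 1.06 (n = 6) in Astrocyte-like cells. Oligodendrocyte-like cells had 4.33% ± 0.398 (n = 8), Smooth muscle-like cells 4.25% ± 0.425 (n = 7) and Endothelial-like cells 3.74% ± 0.711 (n = 8). Microglia-like cells, the resident macrophages, had 2.90% ± 0.584 (n = 8), and Cajal-Retzius-like cells, early-born Reln-expressing neurons, 2.98% ± 0.319 (n = 6). Oligodendrocyte precursor-like cells had 2.94% ± 0.459 (n = 5). Means and SDs of these neighbours overlap, but within mice some of them were ordered: Cajal-Retzius-like cells lay below Endothelial-like cells in 6 of 6 mice, and Endothelial-like cells below Smooth muscle-like cells in 6 of 7 and below Oligodendrocyte-like cells in 7 of 8. Cajal-Retzius-like cells exceeded Microglia-like cells in 4 of 6 mice and Oligodendrocyte-like exceeded Smooth muscle-like cells in 4 of 7. Within mice, Astrocyte-like cells exceeded Microglia-like, Endothelial-like and Oligodendrocyte-like cells in 6 of 6 mice.

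The nuclear-encoded genes gave another order. Choroid plexus-like cells were again highest at 4.27% ± 0.142 (n = 3). Oligodendrocyte precursor-like cells at 2.54% ± 0.309 (n = 5), Cajal-Retzius-like at 2.53% ± 0.238 (n = 6), Astrocyte-like at 2.50% ± 0.137 (n = 6) and Pericyte-like at 2.42% ± 0.0889 (n = 4) followed. Within mice, Oligodendrocyte precursor-like cells exceeded Pericyte-like cells in 4 of 4 mice, Cajal-Retzius-like cells exceeded Pericyte-like cells in 3 of 3 and Oligodendrocyte precursor-like cells in 2 of 4, and Astrocyte-like cells exceeded Cajal-Retzius-like cells in 1 of 4. Oligodendrocyte-like cells had 2.22% ± 0.0951, cluster 0 had 2.14% ± 0.0795 and Endothelial-like cells 1.94% ± 0.0983 (n = 8 each). Microglia-like cells had 1.30% ± 0.055 (n = 8), below Oligodendrocyte-like, Endothelial-like and both numbered clusters in 8 of 8 mice and below Smooth muscle-like cells in 7 of 7.

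The ratio of the mitochondrial-encoded to the nuclear-encoded UMIs set the classes apart in a further way. Cajal-Retzius-like cells had 1.19 ± 0.159 mitochondrial-encoded UMIs per nuclear-encoded UMI (n = 6), and in 6 of 6 mice this was below the Microglia-like, Endothelial-like and Oligodendrocyte-like cells of the same mouse. Oligodendrocyte precursor-like cells had a like ratio, 1.19 ± 0.368 (n = 5), and Cajal-Retzius-like cells were above them in 1 of the 4 mice with both. In the 6 mice with Cajal-Retzius-like cells the nuclear-encoded share of these cells was above that of Microglia-like, Endothelial-like and Oligodendrocyte-like cells. Astrocyte-like cells had a ratio of 2.66 ± 0.438 (n = 6), Microglia-like cells 2.23 ± 0.45 (n = 8), and Oligodendrocyte-like cells 1.95 ± 0.209 (n = 8). Microglia-like and Cajal-Retzius-like cells thus had like mitochondrial-encoded shares but differed in the nuclear-encoded share, 1.30% against 2.53%.

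**Figure D1:**
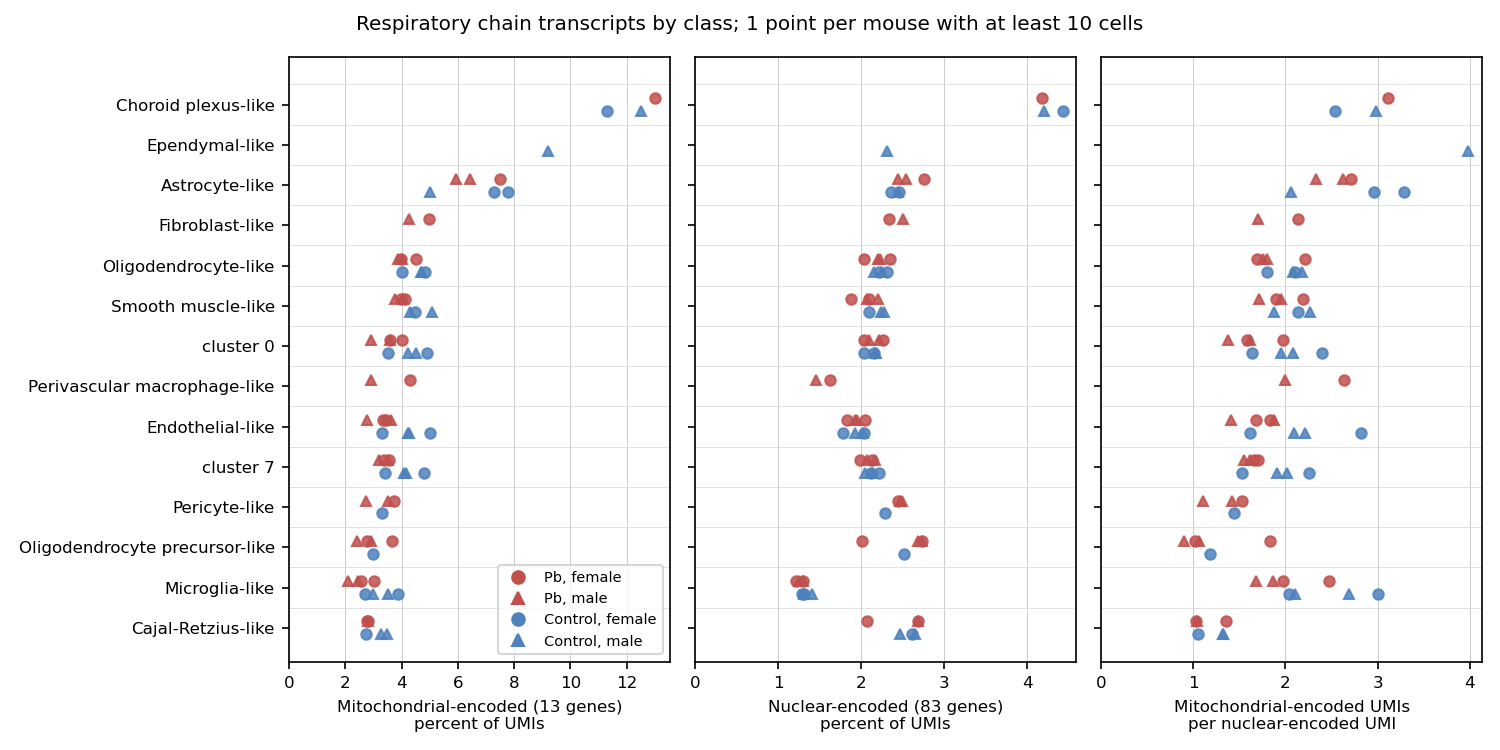
Share of UMIs from the 13 mitochondrial-encoded genes (left, percent), from the 83 nuclear-encoded genes (middle, percent) and their ratio (right), by class. Each point is 1 mouse with at least 10 cells of the class, red for Pb, blue for Control, circles for females and triangles for males. Choroid plexus-like cells are highest on both percent axes, and Microglia-like cells are the lowest on the nuclear axis at 1.22% to 1.41%.

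By complex, the complex IV genes of mitochondrial DNA, mt-Co1, mt-Co2 and mt-Co3, which encode its catalytic core, made up 1.17% ± 0.227 of UMIs in Microglia-like, 1.90% ± 0.165 in Oligodendrocyte-like, 2.89% ± 0.395 in Astrocyte-like and 5.31% ± 0.547 in Choroid plexus-like cells. The 7 mitochondrial-encoded complex I genes made up 0.745% ± 0.166, 0.965% ± 0.112, 1.51% ± 0.273 and 3.25% ± 0.161 in the same order. Among nuclear-encoded genes, complex I took 0.761% ± 0.0351 of UMIs in Oligodendrocyte-like and 0.376% ± 0.0187 in Microglia-like cells, and complex V 0.531% ± 0.0298 and 0.327% ± 0.0201. Complex II, the succinate dehydrogenase, had the smallest share, 0.0506% ± 0.00445 in Oligodendrocyte-like and 0.0322% ± 0.0033 in Microglia-like cells.

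Each gene was then tested in a class against the mean of the other 7 tested classes, with edgeR's quasi-likelihood test on counts summed per mouse and class and mouse as a term. Of the 96 genes, 91 passed the filter on low counts (13 mitochondrial-encoded and 78 nuclear-encoded) among 10235 genes. Changes are log2 fold changes with their standard error (SE), called at a Benjamini-Hochberg adjusted p under 0.05 over all 10235 genes. Levels are CPM, the UMIs of a gene scaled to 1000000 UMIs of the class in a mouse. Since the classes were built from other genes of the same cells, large shares of all genes differ between them, and those shares are given beside each count.

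Microglia-like cells had lower levels of most nuclear-encoded genes in each of complexes I and III to V. Of the 91 genes, 67 were lower and 3 higher, where 34.6% of all genes tested were lower and 31.5% higher. In complex I, 29 of 35 nuclear-encoded genes were lower, with a median log2 fold change of -0.52. The other complexes had 2 of 4 lower in complex II, 5 of 8 in III, 13 of 15 in IV and 12 of 16 in V. Over the 78 nuclear-encoded genes the median was -0.41, over the 13 mitochondrial-encoded genes -0.10 (6 lower, 1 higher) and over all genes -0.11.

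Atp5g3 encodes the c subunit of the proton-driven ring of the ATP synthase. In Microglia-like cells it measured 57.2, 95.6, 103 and 116 CPM in Control F1, F2, M1 and M2 and 87.3, 86.6, 109 and 118 CPM in Pb F1, F2, M1 and M2. In Astrocyte-like cells it measured 701, 525 and 390 CPM in Control F1, F2 and M2 and 576, 520 and 679 CPM in Pb F1, M1 and M2. No mouse of one class reached the range of the other. The log2 fold change of Atp5g3 was -1.05 (SE 0.07, edgeR adjusted p = 9.05e-27) in Microglia-like and 1.23 (SE 0.09, adjusted p = 1.58e-23) in Astrocyte-like cells.

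Cox7a2l went the other way. It measured 509, 452, 429 and 430 CPM in the Microglia-like cells of Control F1, F2, M1 and M2 and 464, 460, 435 and 471 CPM in those of Pb F1, F2, M1 and M2, and 144 to 242 CPM over the 6 mice with Astrocyte-like cells. Every Microglia-like value exceeded every Astrocyte-like and Oligodendrocyte-like value (223 to 266 CPM). Its log2 fold change was 0.83 (SE 0.06, edgeR adjusted p = 1.63e-25) in Microglia-like, 0.80 (SE 0.09, adjusted p = 8.35e-14) in Cajal-Retzius-like, -0.44 (SE 0.06, adjusted p = 7.47e-10) in Oligodendrocyte-like and -1.13 (SE 0.11, adjusted p = 2.95e-16) in Astrocyte-like cells. The other genes called higher in Microglia-like cells were Ndufs8, an iron-sulfur subunit of complex I (log2 fold change 0.30, SE 0.08, adjusted p = 0.000294), and mt-Nd1 (0.13, SE 0.06, adjusted p = 0.04).

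Oligodendrocyte-like cells had 61 genes higher and 8 lower of 91, where 34.5% of all genes were higher and 36.5% lower. With DESeq2's size factors the split was 52 higher and 14 lower. Nuclear-encoded complex I had 26 of 35 genes higher, 2 lower and a median of 0.46. All 4 complex II genes were higher, with 5 of 8 in complex III, 8 of 15 in IV and 8 of 16 in V. The 13 mitochondrial-encoded genes had 10 higher and 0 lower (median 0.27), and the median of all genes was -0.09.

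The 3 nuclear-encoded genes with the largest positive fold change in Oligodendrocyte-like cells belong to complex I. Ndufa3, an accessory subunit, measured 485, 531, 419 and 439 CPM in Control F1, F2, M1 and M2 and 512, 460, 499 and 510 CPM in Pb F1, F2, M1 and M2, against 150 to 212 CPM in Microglia-like cells. Oligodendrocyte-like and Microglia-like mice did not overlap. Ndufa3 differed from the other classes by 0.85 (log2, SE 0.07, edgeR adjusted p = 1.04e-22), Ndufs7, which carries the last iron-sulfur cluster of the electron path, by 0.83 (SE 0.05, adjusted p = 4.61e-28), and Ndufs1, the largest subunit of the matrix arm, by 0.77 (SE 0.09, adjusted p = 3.92e-12). Lower in Oligodendrocyte-like cells were Cox4i2 (-2.04, SE 0.29, adjusted p = 6.66e-10) and Ndufa4l2 (-1.90, SE 0.22, adjusted p = 4.82e-13), both at low levels there (means of 5.92 and 10.8 CPM).

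Astrocyte-like cells differed most in the mitochondrial-encoded genes: 12 of 13 mitochondrial-encoded genes were higher and 0 lower, with a median of 0.72, and mt-Nd6 did not pass (0.35, SE 0.25, adjusted p = 0.252). Over all 91 genes, 46 were higher and 9 lower, where 23.6% of all genes were higher and 26.6% lower. The nuclear-encoded genes had 34 of 78 higher and 9 lower, with a median of 0.14 beside -0.16 over all genes. Complex III had 5 of 8 nuclear-encoded genes higher, complex V 9 of 16, complex II 3 of 4, complex I 14 of 35 and complex IV 3 of 15. Astrocyte-like cells were also the shallowest tested class. Over mice with at least 10 cells, their median UMIs per cell were 2545.5 to 3788. In the other tested classes the lowest was 4096, in cluster 0 of Pb M2. Choroid plexus-like cells, with the highest mitochondrial-encoded share, had 6387 to 23934.5. The part of depth or cell damage in these differences was not tested.

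mt-Co1, the catalytic subunit of complex IV, measured 10304, 12017 and 7715 CPM in the Astrocyte-like cells of Control F1, F2 and M2 and 11671, 9727 and 9637 CPM in those of Pb F1, M1 and M2. In Cajal-Retzius-like cells mt-Co1 measured 3724, 4439 and 3704 CPM in Control F2, M1 and M2 and 3145, 3368 and 3134 CPM in Pb F1, F2 and M2. The ranges of these classes did not meet, in either group. The log2 fold change of mt-Co1 was 0.92 (SE 0.06, edgeR adjusted p = 1.08e-24) in Astrocyte-like and -1.04 (SE 0.08, adjusted p = 1.06e-22) in Cajal-Retzius-like cells.

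Of the nuclear-encoded genes, Ndufs1 was also higher in Astrocyte-like cells (1.16, SE 0.20, edgeR adjusted p = 2.66e-07), as was Cox6b2, described with the paralogs (1.27, SE 0.31, adjusted p = 0.000277). Uqcr10, a small subunit of complex III, measured 680, 535 and 430 CPM in Control F1, F2 and M2 and 563, 659 and 562 CPM in Pb F1, M1 and M2, against 130 to 212 CPM in Microglia-like cells. No value was shared between these classes, and the log2 fold change of Uqcr10 in Astrocyte-like cells was 0.82 (adjusted p = 5.37e-14). Uqcrb, another complex III subunit, was lower in Astrocyte-like cells (-1.03, SE 0.12, adjusted p = 9.55e-13), so genes of the same complex differed in direction.

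Cajal-Retzius-like cells had lower levels of 12 of 13 mitochondrial-encoded genes, with a median of -0.78, while 20 nuclear-encoded genes were higher and 17 lower of 78 (median 0.07; all genes -0.19). In all, 20 genes were higher and 29 lower, where 19.2% of all genes were higher and 25.5% lower, and with DESeq2's size factors the split was 31 higher and 20 lower. Nuclear-encoded complex I had 13 of 35 higher and 4 lower, and complex V 2 of 16 higher and 5 lower. Ndufv2, an electron-entry subunit of complex I, was higher (0.69, SE 0.14, edgeR adjusted p = 3.24e-05) and Atp5e, the epsilon subunit of the ATP synthase, lower (-0.87, SE 0.11, adjusted p = 5.3e-11).

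The vascular classes were Endothelial-like cells, Smooth muscle-like cells and both numbered clusters. Each was compared with a mean that held the other vascular classes, so differences common to them count for less there. Endothelial-like cells had 33 genes lower and 6 higher (19.9% and 25% of all genes), with 30 of the 33 nuclear-encoded and 15 of them in complex I. Cluster 0 had 23 higher and 16 lower (26.5% and 22% of all genes), and with DESeq2's size factors 17 higher and 28 lower, so the balance there turned with the scaling, as did the sign of both its medians (0.01 and 0.04 against -0.07 and -0.04). Cluster 7 had 7 higher and 17 lower (24.9% and 12.8%; 6 and 29 with DESeq2's size factors), and Smooth muscle-like cells 11 and 11 (23.4% and 13.2%; 10 and 16 with DESeq2's size factors). Ndufa8, a complex I subunit folded in the intermembrane space, was higher in cluster 0 (0.77, SE 0.06, edgeR adjusted p = 1.06e-20), and Atp5j, a stalk subunit of the ATP synthase, in Endothelial-like cells (0.46, SE 0.06, adjusted p = 2.26e-10). Sdhc, a membrane anchor of complex II, was higher in Smooth muscle-like (0.60, SE 0.12, adjusted p = 1.55e-05) and Astrocyte-like cells (0.90, adjusted p = 1.5e-07).

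**Figure D2:**
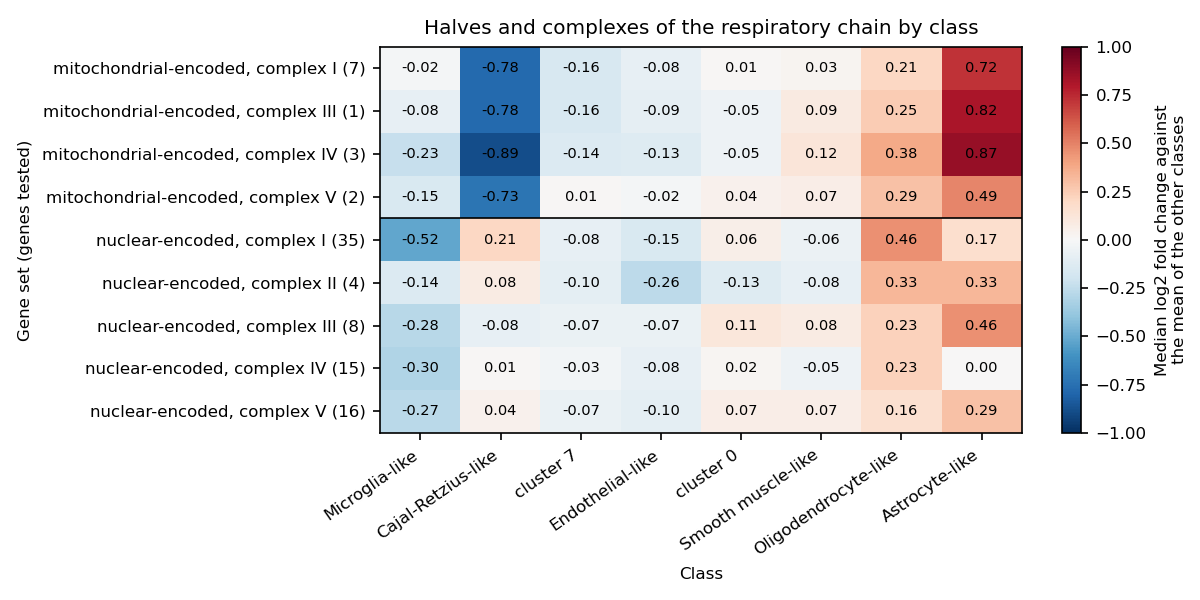
Median log2 fold change of each class against the mean of the other classes (color and printed value), for the mitochondrial-encoded genes by complex above the line and the nuclear-encoded genes by complex below it, with the number of genes tested in parentheses. Astrocyte-like cells reach 0.87 for mitochondrial-encoded complex IV and Cajal-Retzius-like cells -0.89, while nuclear-encoded complex I runs from -0.52 in Microglia-like to 0.46 in Oligodendrocyte-like cells.

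Among other mitochondrial and metabolic genes, the pattern differed by list. In Oligodendrocyte-like cells 46 of the 72 mitochondrial ribosome genes tested were higher and 5 lower (median 0.29), while 6 of 17 glycolysis genes were higher and 11 lower (median -0.37). In Microglia-like cells 12 of 16 tricarboxylic acid cycle genes were lower and 3 higher (median -0.41), as were 16 of 36 assembly factors, with 2 higher (median -0.28). Astrocyte-like cells had 8 of 16 tricarboxylic acid cycle genes higher and 0 lower (median 0.49) and 12 of 17 glycolysis genes higher and 2 lower (median 0.72), but 5 of 72 mitochondrial ribosome genes higher and 9 lower (median -0.14). Of all genes tested, 34.5% were higher and 36.5% lower in Oligodendrocyte-like cells (median -0.09), 31.5% and 34.6% in Microglia-like cells (median -0.11), and 23.6% and 26.6% in Astrocyte-like cells (median -0.16).

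Several complex IV subunits come in alternative versions from different genes, and classes differed in which version they held. In Pericyte-like cells, which wrap capillaries, Ndufa4l2 measured 1833, 1545 and 1336 CPM in Pb F1, M1 and M2 and 1199 CPM in Control F2. Ndufa4 measured 121, 77.7 and 75.3 CPM in the same Pb mice and 117 CPM in Control F2. In all 4 mice Ndufa4l2 was many times higher than its paralog, and it made up 91.1% to 95.2% of the UMIs of the pair.

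The shares of cluster 7 and the Smooth muscle-like cells lay between. Over mice with at least 10 cells, median UMIs per cell were 8823 to 12722.5 in cluster 7 and 8927 to 14278 in Smooth muscle-like cells. They were 3006 to 4054 in Pericyte-like and 5394.5 to 6421.5 in Endothelial-like cells. At resolution 0.5, cluster 7 was matched to the class named Smooth muscle-like. Whether cluster 7 held mixed RNA of pericytes and endothelium was not tested. Ndufa4l2 made up 45.3% to 63.8% of the pair in cluster 7 (median 54.9%, n = 8 mice) and 40.7% to 62.0% in Smooth muscle-like cells (median 47.8%, n = 7). In every other class with at least 10 cells in a mouse, it made up at most 14.2%. The log2 fold change of Ndufa4l2 against the other tested classes was 3.96 (SE 0.10, edgeR adjusted p = 1.54e-62) in cluster 7 and 3.44 (SE 0.12, adjusted p = 3.47e-49) in Smooth muscle-like cells. Pericyte-like cells reached 10 cells in 1 control mouse only and did not enter the test.

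Cox4i2 is the alternative of subunit 4, a regulatory subunit of complex IV. It measured 894, 1096 and 837 CPM in the Pericyte-like cells of Pb F1, M1 and M2 and 982 CPM in those of Control F2, where Cox4i1 measured 894, 855, 884 and 749 CPM. The alternative and the common version were thus at like levels, with Cox4i2 at 48.6% to 56.7% of the pair. The share was 19.7% to 30.6% in cluster 7 and 11.2% to 24.8% in Smooth muscle-like cells, and in the other classes it was at most 5.05%. Its log2 fold change was 4.10 (SE 0.11, edgeR adjusted p = 1.83e-58) in cluster 7 and 3.44 (SE 0.14, adjusted p = 4.72e-43) in Smooth muscle-like cells. Whether the low levels of both alternatives in other classes came from those cells or from free RNA was not tested.

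Choroid plexus-like cells, which secrete cerebrospinal fluid, held other alternatives. Cox8b measured 285 CPM in Pb F1, 676 CPM in Control F2 and 215 CPM in Control M2, and made up 11.1% to 24.2% of its pair with Cox8a. Cox6b2, a version best known from testis, measured 343, 316 and 215 CPM in the same order, 22.4% to 33.4% of its pair with Cox6b1. Cox7a1, the heart and muscle version of subunit 7A, made up 7.95% to 8.87% of its pair with Cox7a2, next to 13.9% in the Ependymal-like cells of 1 mouse and 5.41% and 9.21% in the Fibroblast-like cells of 2 mice. Atp5g1, another gene for the c subunit of the ATP synthase, measured 1467, 1507 and 1356 CPM in these cells, against 109 to 250 CPM in Microglia-like cells. Cox6a2 and Cox7b2 were near the detection limit over all cells, with means of 2.86 and 0.0652 CPM.

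**Figure D3:**
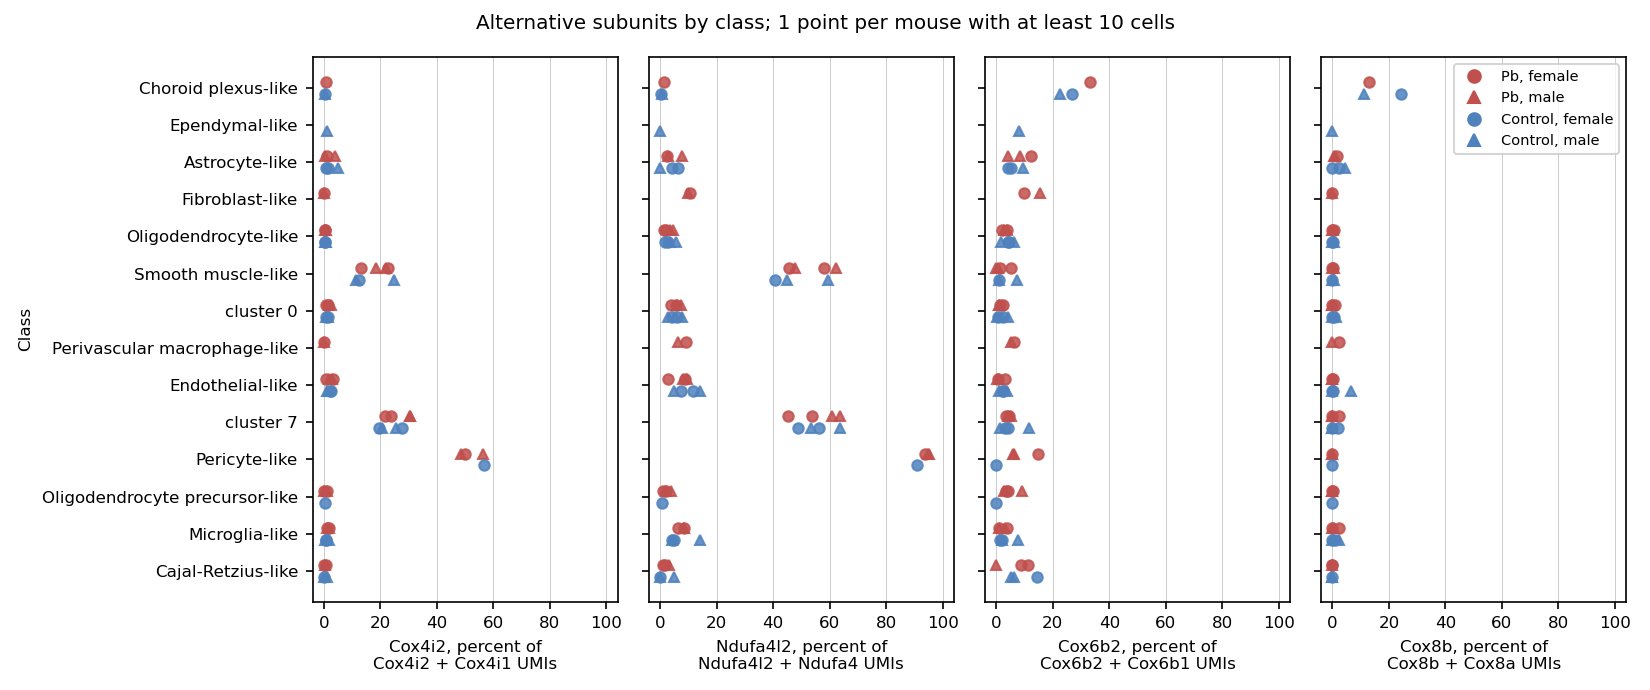
Percent of the UMIs of a pair that came from the alternative gene, by class, for Cox4i2, Ndufa4l2, Cox6b2 and Cox8b (left to right). Each point is 1 mouse with at least 10 cells, red for Pb, blue for Control, circles for females and triangles for males. Pericyte-like cells lie at 91.1% to 95.2% for Ndufa4l2 and 48.6% to 56.7% for Cox4i2, and Choroid plexus-like cells at 22.4% to 33.4% for Cox6b2, with Pb and control mice mixed.

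The second comparison asked whether Pb exposure before and shortly after birth altered these genes at 5 months. In most classes the mitochondrial-encoded genes were slightly lower in Pb than in control mice and the nuclear-encoded genes near equal, but no respiratory chain gene passed the test. In Microglia-like cells the mitochondrial-encoded share was 3.88%, 2.68%, 3.53% and 2.97% in Control F1, F2, M1 and M2 and 2.56%, 3.02%, 2.10% and 2.43% in Pb F1, F2, M1 and M2. The groups overlapped, with Control F2 below Pb F2, and the means were 3.26% ± 0.538 and 2.53% ± 0.382 (SD, n = 4 each).

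In Endothelial-like cells the share was 5.01%, 3.30%, 4.22% and 4.27% in Control F1, F2, M1 and M2 and 3.44%, 3.34%, 2.75% and 3.62% in Pb F1, F2, M1 and M2. Control F2 lay below 3 of the Pb mice and the other controls above all of them, with means of 4.20% ± 0.699 and 3.29% ± 0.375 (n = 4 each). Smooth muscle-like cells were the only tested class whose groups did not overlap, with 4.47%, 4.30% and 5.07% in Control F1, M1 and M2 and 3.99%, 4.13%, 3.76% and 4.04% in Pb F1, F2, M1 and M2. Control F2, the lowest or second lowest control in other classes, had too few Smooth muscle-like cells to enter. Its 7 cells had a median share of 3.36%, below the medians over cells of the Pb mice, 3.46% to 4.33%. By these medians the entered mice overlapped too, with 4.11% in Control M1 and 4.33% in Pb F2. The separation thus held for summed UMIs and without Control F2 only.

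Oligodendrocyte-like cells had 4.84%, 4.01%, 4.68% and 4.72% in Control F1, F2, M1 and M2 and 3.99%, 4.50%, 3.86% and 4.02% in Pb F1, F2, M1 and M2, with overlap. The difference of the means was -0.473 percentage points, and without the cluster that came from Control M2 that mouse had 4.39% in place of 4.72%. In cluster 0 the means were 4.30% ± 0.583 in control and 3.52% ± 0.457 in Pb mice, and in cluster 7 they were 4.10% ± 0.570 and 3.41% ± 0.151 (n = 4 each). In Astrocyte-like cells they were 6.70% ± 1.47 and 6.61% ± 0.797 (n = 3 each), a difference of -0.0829 percentage points, well inside the spread.

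The same mice took the ends of this range in each class. Over the 5 classes with all 8 mice, Control F1 had the highest mitochondrial-encoded share in 5 of 5 and Pb M1 the lowest in 5 of 5. Control F2 ranked from 2 to 4 from the lowest, among the Pb mice. The libraries also differed in cells kept, with 211, 567, 368 and 474 in Control F1, F2, M1 and M2. Pb F1, F2, M1 and M2 had 1157, 471, 1084 and 843. Control F1 was thus the smallest library and Control F2 the largest of the controls, while the largest Pb library was Pb F1, not Pb M1. Whether the number of cells had a part in the order of the mice was not tested. Over all cells of a mouse, the difference between the groups was -1.08 percentage points, and -0.66 with Choroid plexus-like cells left out, since Control M2 then went from 6.45% to 4.21%.

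The summed nuclear-encoded share overlapped between the groups in every tested class. It was 1.33% ± 0.0527 in control and 1.27% ± 0.0397 in Pb mice in Microglia-like cells, and 1.94% in both groups in Endothelial-like cells (n = 4 each). Pb F2 had the lowest nuclear-encoded share in 4 of the 5 classes with all 8 mice. By complex, the nuclear-encoded genes of complex IV did not overlap in Microglia-like cells. Their share was 0.470%, 0.420%, 0.436% and 0.445% in Control F1, F2, M1 and M2 and 0.417%, 0.400%, 0.385% and 0.400% in Pb F1, F2, M1 and M2, all Pb mice below all controls. As a percent of nuclear UMIs alone, the nuclear-encoded share of Microglia-like cells was 1.38% ± 0.0511 in control and 1.30% ± 0.0391 in Pb mice (n = 4 each), also without overlap. Among the mitochondrial-encoded genes, the shares of complexes I, III, IV and V were each lower in all Pb than in all control mice in Smooth muscle-like cells. In Cajal-Retzius-like cells this held for complex IV (1.12% ± 0.0227 in Pb, 1.28% ± 0.102 in control mice) and complex V (0.623% ± 0.0204 and 0.761% ± 0.119, n = 3 each). These shares were named because their groups did not overlap, out of the shares of every complex in each tested class. The complexes are parts of the same sum, and Control F2 did not enter the Smooth muscle-like class. With 3 or 4 mice per group, such separation carries no test.

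Gene by gene, edgeR's quasi-likelihood test with sex as a covariate called 0 of 95 respiratory chain genes over all cells, and 0 of the 81 to 91 tested in each of the 8 classes. DESeq2 and limma-voom also called 0. The background was 0% of all genes tested in each, except 0.0358% in Astrocyte-like cells. The counts and medians below describe direction and are not tests of the genes as a set, since the mitochondrial-encoded genes share their transcripts.

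Over all cells the 13 mitochondrial-encoded genes were all below 0, with a median of -0.39 on the log2 scale (-0.22 without Control M2), and 4 had an unadjusted p under 0.05 in that direction and 0 in the other, where 1.8% and 3.01% of all genes did. Of the 82 nuclear-encoded genes tested there, 68 were below 0 (all genes 54.2%), with a median of -0.07 and 0 at an unadjusted p under 0.05. These counts include the Choroid plexus-like cells, and the genes were not tested without them. With those cells left out, the nuclear-encoded share over all cells went from 2.58% to 1.98% in Control M2 and from 2.25% to 2.06% in Pb F1. It was then 1.96% to 2.04% in control and 1.81% to 2.06% in Pb mice.

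In Endothelial-like cells all 13 mitochondrial-encoded genes had a fold change below 0, where 50.2% of all genes did, with a median of -0.40 on the log2 scale, and 11 had an unadjusted p under 0.05 in that direction, where 2.53% of all genes did. The median was -0.27 without Control F1 and -0.52 without Control F2. Microglia-like cells had 12 of 13 below 0 (all genes 51.5%), a median of -0.40 (-0.24 without Control F1) and 7 at an unadjusted p under 0.05 (all genes 2.41%). The 78 nuclear-encoded genes had a median of -0.02 in Microglia-like cells, with 3 lower at an unadjusted p under 0.05, and the 77 in Endothelial-like cells had a median of -0.05, with 0.

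In cluster 0 all 13 mitochondrial-encoded genes were below 0 (all genes 50%; median -0.32; 9 at an unadjusted p under 0.05, background 2.36%), as in cluster 7 (51.6%; -0.27; 6, background 2.21%) and Smooth muscle-like cells (50.4%; -0.24; 5, background 2.31%). The cluster 7 median was -0.15 without Control F1, and the Smooth muscle-like median was -0.15 without Control M2. Oligodendrocyte-like cells had 12 of 13 below 0 (50.9%), a median of -0.18 and 5 at an unadjusted p under 0.05 (background 2.4%). Astrocyte-like cells had 5 of 13 below 0 (50.3%; median 0.10, but 0.01 without Control M2, 0.23 without Pb F1 and -0.10 without sex in the fit) and Cajal-Retzius-like cells 8 of 12 (51.5%; median -0.11), each with 0 at an unadjusted p under 0.05 (backgrounds of 2.87% and 1.05%). Whether classes differed from each other in this response was not tested.

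**Figure D4:**
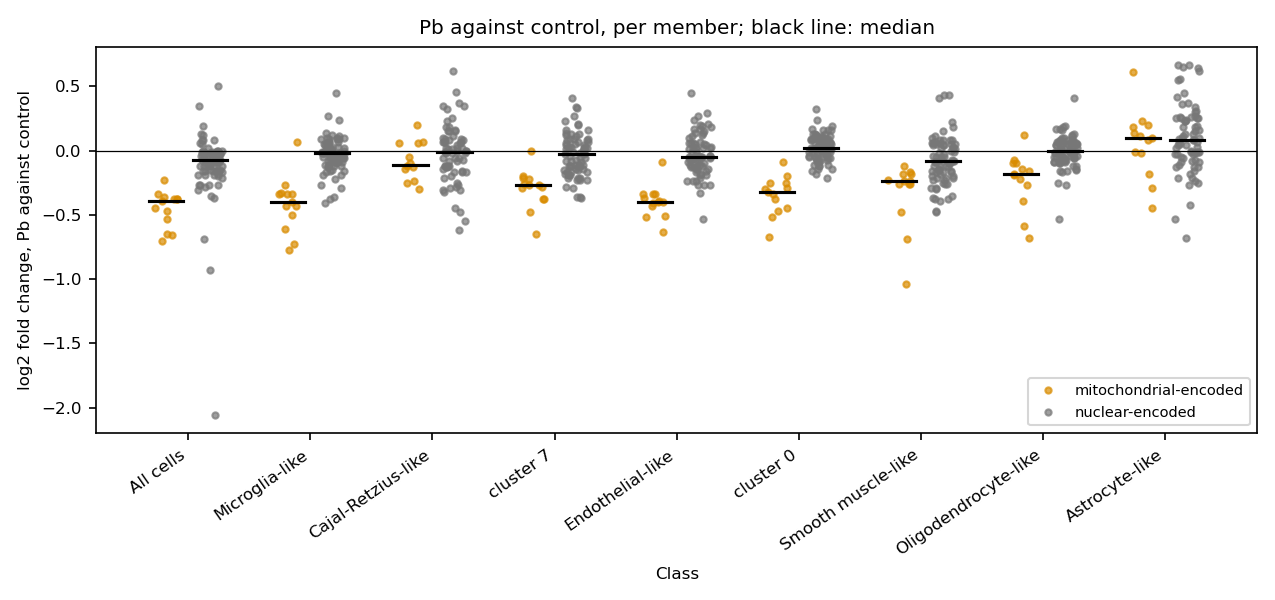
log2 fold change of each respiratory chain gene in Pb against control mice, by class, with mitochondrial-encoded genes in orange, nuclear-encoded genes in grey and a black line at each median. Mitochondrial-encoded medians run from -0.40 in Endothelial-like and Microglia-like cells to 0.10 in Astrocyte-like cells, while nuclear-encoded medians lie between -0.08 and 0.08. No gene shown passed the test.

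Complex I holds the mitochondrial-encoded genes with the smallest p. mt-Nd5, one of its proton-pumping subunits, measured 795, 422, 582 and 618 CPM in cluster 7 of Control F1, F2, M1 and M2 and 398, 425, 353 and 371 CPM in that of Pb F1, F2, M1 and M2. Control F2 lay among the Pb mice, just under Pb F2, and the other controls above all of them. Its log2 fold change was -0.65 (SE 0.17, edgeR adjusted p = 0.541) in cluster 7, -0.61 (SE 0.18, adjusted p = 0.86) in Microglia-like and -0.52 (SE 0.16, adjusted p = 0.747) in Endothelial-like cells.

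In Microglia-like cells mt-Nd5 measured 540, 322, 495 and 425 CPM in Control F1, F2, M1 and M2 and 282, 349, 219 and 309 CPM in Pb F1, F2, M1 and M2, again with only Control F2 inside the Pb range. mt-Nd4l, the smallest complex I subunit of the organelle, had its smallest p in cluster 0 (-0.52, SE 0.15, edgeR adjusted p = 0.997), with 360, 247, 345 and 321 CPM in Control F1, F2, M1 and M2 and 185, 221, 201 and 287 CPM in Pb F1, F2, M1 and M2. mt-Nd1 was at -0.43 in Microglia-like and -0.38 in cluster 0, without passing. mt-Nd6, the only 1 of the 13 genes on the minus strand, had a log2 fold change of -1.04 in Smooth muscle-like cells (SE 0.36, edgeR adjusted p = 0.971), at low levels of 89.1, 86.7 and 40.5 CPM in Control F1, M1 and M2 and 37.4, 36.0, 48.7 and 19.9 CPM in Pb F1, F2, M1 and M2.

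mt-Nd3, a short complex I subunit, was picked out after its values were seen. It had the highest fold change among the mitochondrial-encoded genes in 8 of 9 units, from -0.23 over all cells to 0.20 in Cajal-Retzius-like cells, and the second lowest in Astrocyte-like cells (-0.29). In Oligodendrocyte-like cells mt-Nd3 measured 532, 423, 421 and 715 CPM in Control F1, F2, M1 and M2 and 448, 663, 654 and 519 CPM in Pb F1, F2, M1 and M2, with no separation of the groups. The sign of its difference turned under other settings in 8 of the 9 units.

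mt-Cytb, the complex III gene of mitochondrial DNA, had fold changes from -0.41 in Endothelial-like to 0.14 in Astrocyte-like cells. For complex IV, mt-Co1, mt-Co2 and mt-Co3 were between -0.40 and -0.25 in Endothelial-like cells, Microglia-like cells and cluster 0, and between -0.19 and -0.07 in Oligodendrocyte-like cells. None passed the edgeR test.

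The complex V gene mt-Atp8, whose sequence is given above, measured 768, 283, 437 and 363 CPM in the Endothelial-like cells of Control F1, F2, M1 and M2 and 233, 292, 281 and 375 CPM in those of Pb F1, F2, M1 and M2. Control F1 was far above the rest, and the other controls lay from within to above the Pb range. In Microglia-like cells it measured 660, 177, 429 and 215 CPM in the same controls and 147, 231, 227 and 263 CPM in the same Pb mice, with Control F1 again highest. Its log2 fold change was -0.63 in Endothelial-like and -0.73 (SE 0.33, edgeR adjusted p = 1) in Microglia-like cells, beside -0.37 and -0.40 for mt-Atp6, the gene it overlaps.

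Without the filter on low counts, edgeR called mt-Atp8 in cluster 0 (-0.64, adjusted p = 0.00621), Microglia-like (-0.69, adjusted p = 0.00337) and Oligodendrocyte-like cells (-0.56, adjusted p = 0.00659), and mt-Nd5 in Microglia-like cells (-0.57, adjusted p = 0.0337). These were the only calls of respiratory chain genes between the groups under any setting run. The share of all genes called without the filter is not given here, so these calls stand without a background.

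**Figure D5:**
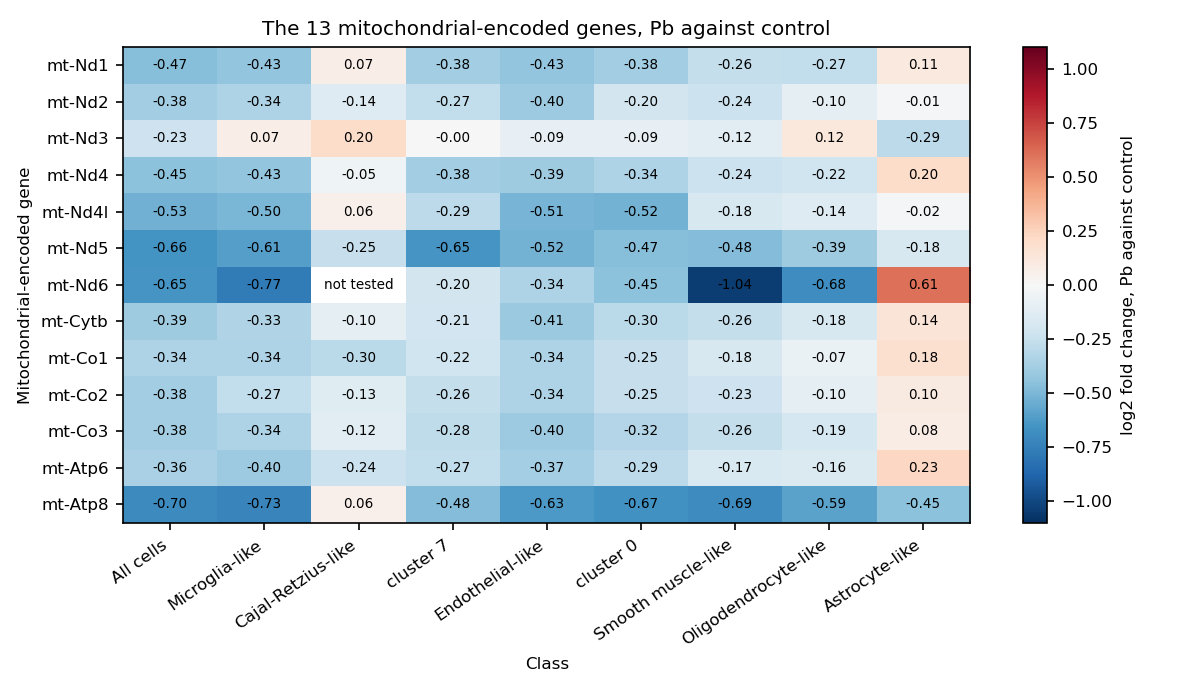
log2 fold change in Pb against control mice (color and printed value) of the 13 mitochondrial-encoded genes, in rows ordered by complex, over all cells and in 8 classes. mt-Nd5 and mt-Atp8 are among the lowest values in most columns, mt-Nd3 has the highest value in every column except Astrocyte-like, and the Astrocyte-like and Cajal-Retzius-like columns hold values on both sides of 0.

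Of the nuclear-encoded genes, those with the smallest p in Astrocyte-like cells were Atp5g2, another c-subunit gene (-0.68, edgeR adjusted p = 0.73), and the complex I subunits Ndufb2 (0.64, adjusted p = 0.744) and Ndufb7 (0.62, adjusted p = 0.788), and in Cajal-Retzius-like cells Cox5a of complex IV (-0.62), Ndufb4 of complex I (0.62) and Atp5j2 of complex V (0.46), each with an adjusted p of 1. In Astrocyte-like cells 3 nuclear-encoded genes were higher at an unadjusted p under 0.05 and 1 lower, where 3.05% and 2.87% of all genes were. Cox8b had the lowest fold change over all cells (-2.06, SE 1.76, edgeR adjusted p = 0.981), at 0, 27.4, 0 and 65.0 CPM in Control F1, F2, M1 and M2 and 30.8, 0, 1.04 and 0.571 CPM in Pb F1, F2, M1 and M2. The 3 highest were the mice with at least 10 Choroid plexus-like cells.

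Some measures of cell state moved with the groups. The summed level of 31 heat shock genes was 14654 to 19178 CPM in Pb and 11578 to 13341 CPM in control Oligodendrocyte-like cells, 19328 to 24836 and 13762 to 19281 CPM in Smooth muscle-like cells, and 6724 to 7333 and 4624 to 5647 CPM in Astrocyte-like cells, without overlap in these 3 classes and with overlap in the others. Median UMIs per cell were 5394 to 5866 in Pb and 5910 to 6422 in control Endothelial-like cells, and 4096 to 5130 and 5190 to 6817 in cluster 0. Hemoglobin and other red blood cell markers summed to 22.7 to 134 CPM in Pb and 188 to 388 CPM in control Cajal-Retzius-like cells. In Astrocyte-like cells pericyte markers summed to 213 to 548 CPM in Pb and 131 to 185 CPM in control mice, and ependymal markers to 72.3 to 91.4 and 103 to 175 CPM. Choroid plexus markers overlapped between the groups but reached higher sums in control mice. They summed to 222 to 4789 CPM in Pb and 41.2 to 16761 CPM in control Astrocyte-like cells. In Cajal-Retzius-like cells the sums were 0 to 4321 and 15.3 to 14900 CPM, and in cluster 0 they were 7.43 to 4289 and 17.0 to 15044 CPM. The part of all these measures in the differences above, between groups or classes, was not tested.

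Outside the chain, none of the genes tested in the 8 lists (assembly factors, mitochondrial ribosome, mitochondrial DNA upkeep, mitochondrial RNA processing, regulators of nuclear respiratory genes, tricarboxylic acid cycle, glycolysis, and subunits outside the rule) was called between Pb and control mice by edgeR in any class.

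The last comparisons asked whether sex, or exposure by sex, altered these genes. Males against females gave 0 called respiratory chain genes in all 9 units (edgeR). The background of called genes was 0.0385% over all cells, 0.287% in Astrocyte-like, 0.1% in Cajal-Retzius-like, 0.0881% in Endothelial-like, 0.0616% in Microglia-like, 0.0627% in Oligodendrocyte-like and 0.116% in Smooth muscle-like cells, 0.151% in cluster 0 and 0.128% in cluster 7. Astrocyte-like cells had 11 of 86 at an unadjusted p under 0.05, 10 of them lower in males, where 6.27% of all genes passed that level. The smallest were mt-Nd4 (-0.63, SE 0.20, edgeR adjusted p = 0.292), mt-Cytb (-0.59, SE 0.18, adjusted p = 0.292) and Ndufv3, an accessory subunit of complex I (-0.82, SE 0.28, adjusted p = 0.417).

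The Astrocyte-like cells of the 3 females measured 6388 and 5450 CPM of mt-Nd4 in Control F1 and F2 and 6031 CPM in Pb F1, and those of the 3 males 3374 CPM in Control M2 and 4259 and 4682 CPM in Pb M1 and M2. The sexes did not overlap, with 3 mice each. In the other units 1 to 4 genes had an unadjusted p under 0.05, where 2.55% (all cells) to 7.63% (Smooth muscle-like) of all genes did. Atp5g3 had the smallest p in 5 of the 9 units, higher in males in each, with log2 fold changes of 0.34 in Microglia-like, 0.37 in cluster 0, 0.43 in Oligodendrocyte-like and 0.63 in Cajal-Retzius-like cells and 0.47 over all cells, and adjusted p of at least 0.915. The interaction of exposure and sex, fitted in the 6 units with 2 mice in each cell of the design, gave 0 called respiratory chain genes by edgeR, with a background of 0.033% in cluster 7, 0.0136% in Endothelial-like cells and 0% in the other units. Atp5g1 in Endothelial-like cells was the only 1 at an unadjusted p under 0.05 (-0.77, SE 0.33, adjusted p = 1), where 2.99% of all genes passed that level.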

How the data were processed

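The authors deposited 1 table of raw UMI counts for 17143 genes in 5258 cells, each cell's column naming its mouse. The submitters' processing notes name Cell Ranger, Seurat and the build mm10; for versions, annotation, filters and strand nothing is stated in the sources used here.

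Cells with over 20% mitochondrial-encoded UMIs (53 cells) were removed, as were 30 of the 33 doublets called per library by Scrublet in scanpy 1.11.5 (expected rate 0.02), 0.628% of cells. Clustering used 2000 variable genes without sex-linked, mitochondrial or respiratory chain genes, 30 principal components, 15 neighbours and Leiden resolution 1.0, with no integration. A cluster was named from the marker list with the highest mean level over other clusters. It took no name if its lead over the next list was under 0.5 on the log2 scale or under 3 markers were detected. Leading genes that went against the name, or a low UMI count with no own marker in the top 10 genes, also barred it. The name of a cluster led by Gpr17 and Enpp6 was withdrawn by hand after its genes were seen. A difference from the authors' cell types may come from this naming.

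Counts were summed per mouse and class (at least 10 cells) and tested with edgeR 4.0.16 (R 4.3.3; TMM scaling, filterByExpr, glmQLFTest) on classes with at least 3 mice per group, for exposure and sex (sex plus group), their interaction, and each class against the mean of the others (class plus mouse), with Benjamini-Hochberg adjustment over all genes tested. P-values for exposure, sex and their interaction measure the spread between mice. Those between classes, with mouse as a term, measure how far the class differences varied from mouse to mouse. The tested sums per class and mouse ranged from 48525 UMIs (Astrocyte-like, Control F1) to 2538170 (Oligodendrocyte-like, Pb F1), so low genes are less precise in the smaller classes. No pair of libraries agreed within sampling noise (chi-square per degree of freedom 4.81 to 60.5 over 28 pairs). Alternatives used DESeq2 1.42.0, limma 3.58.1 (voom), DESeq2 size factors, no low-count filter, nuclear library sizes, no sex term, a replicate block, other cell filters, other clusterings and each mouse left out; removal of shared barcodes, of Choroid plexus-like cells and of the cluster from 1 mouse, and the heat shock sum, were chosen after seeing the data. The tests were checked on simulated data. Positions and coding sequences came from GENCODE vM21, promoters from RefSeq.

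The genes and lists were chosen with earlier results of these data known. Named were all mitochondrial-encoded genes, 6 paralog pairs, genes called between groups or otherwise the 3 smallest p, and per class the 3 highest and 3 lowest nuclear-encoded fold changes at a mean of at least 10 CPM; others were named after their values were seen. Sequences of genes missing from these tables were not used here.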

Additional observations from a re-analysis of the deposited data

How the results depend on the processing

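Of 3451 values of 208 results under other settings, 3368 kept their direction, call and size within limits, and exceptions to called or counted results follow. Without the low-count filter, edgeR called 1 respiratory chain gene between Pb and control mice in cluster 0, 1 in Oligodendrocyte-like and 2 in Microglia-like cells. No share of all genes is given beside these calls, and no other setting called any. Between classes, genes called lower numbered 4 in Astrocyte-like cells under DESeq2 and under its size factors, 30 and 28 in cluster 0, 30 and 29 in cluster 7 and 15 and 14 in Oligodendrocyte-like cells; in Cajal-Retzius-like cells 33 and 31 were higher, and 19 lower under DESeq2. Without the low-count filter the numbers lower were 10 in cluster 0, 27 in cluster 7, 5 in Oligodendrocyte-like and 22 in Smooth muscle-like cells, and those higher 8 in Microglia-like and 7 in Smooth muscle-like cells. The median of all genes moved too, in Smooth muscle-like cells from -0.00 to -0.13, beside -0.01 to -0.12 for nuclear-encoded genes. Counts between classes under other settings, here, above and below, stand without the share of all genes called. They are not read as results about the respiratory chain genes. With respiratory chain genes in the clustering, 26 were lower in cluster 7 and 5 in Oligodendrocyte-like cells, and 5 in the latter at resolution 0.5. The nuclear-encoded share of Astrocyte-like cells differed by 0.0197 percentage points without the mitochondrial filter. Without the low-count filter the medians between Pb and control were 0.2 for nuclear-encoded genes in Astrocyte-like cells, 0.02 for mitochondrial-encoded genes in Cajal-Retzius-like cells and 0.03 for nuclear-encoded genes in cluster 7. Sdhc in cluster 7 reversed to 0.13 at resolution 0.5. mt-Nd3 reversed to 0.01 in cluster 0 with limma-voom and, in cluster 7, to 0.05 without the low-count filter, 0.08 with limma-voom, 0.03 at resolution 0.5, 0.02 with respiratory chain genes in the clustering and 0 without shared barcodes. The causes were not tested.

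With 1 mouse left out, genes lower numbered 6 to 14 in Astrocyte-like cells (14 without Control M1), 10 to 26 in cluster 7 (10 without Pb F1, 26 without Pb M2) and 5 to 9 in Oligodendrocyte-like cells (beyond 1.5 times without Control F2, Control M1, Pb F1 or Pb M2). Those higher numbered 2 to 5 in Microglia-like cells (5 without Control M1) and 7 to 11 in Smooth muscle-like cells (7 without Pb M2). The nuclear-encoded median between Pb and control mice was 0.02 to 0.25 in Astrocyte-like cells (0.25 without Control M2), and the mitochondrial-encoded median -0.27 to 0.08 in Cajal-Retzius-like cells (-0.27 without Control F2, 0.08 without Pb M2). mt-Nd3 ranged from -0.44 to 0.27 over all cells, -0.27 to 1.12 in Cajal-Retzius-like cells, -0.29 to 0.17 in cluster 0, -0.24 to 0.26 in cluster 7, -0.29 to 0.15 in Endothelial-like, -0.02 to 0.32 in Oligodendrocyte-like, -0.15 to 0.26 in Microglia-like and -0.39 to 0.18 in Smooth muscle-like cells.

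Replicate numbers did not pair the mice: deviations of same-numbered mice correlated at -0.44, -0.16, 0.07 and -0.26 for F1, F2, M1 and M2, and only M1 correlated best with its own number. With the number as a replicate block, 0 respiratory chain genes were called in each unit, the mitochondrial-encoded median was -0.38 in Microglia-like and -0.37 in Endothelial-like cells, and mt-Nd3 was 0.03 in cluster 7 and -0.06 in Cajal-Retzius-like cells.

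No matching Smooth muscle-like class was found at resolution 0.5, and none large enough to test for exposure remained without shared barcodes, so those values are missing. Depth limits the smaller classes: mt-Nd6 did not pass the low-count filter in Cajal-Retzius-like cells.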
